A study of Mus musculus with 12 samples.

Results

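The immediate-early response genes described here are 9 genes, Fos, Fosb, Jun, Junb, Atf3, Egr1, Klf4, Klf6 and Ier2, out of 55404 gene models listed over 2 expression tables. They were chosen by name from both tables, and each name matched 1 row in each. RNA-seq of mouse oocytes was measured in 12 libraries, 2 in each of 6 groups. Stage and age differ together, as non-growing oocytes (NGO) were taken on postnatal day 6 (P6) and growing oocytes (GO) on postnatal day 7 (P7). The PRC2 table holds control (EedF/+; Ddx4-Cre) and conditional knockout (cKO, EedF/-; Ddx4-Cre) oocytes at both stages, 8 libraries in all. The PRC1 table holds 4 libraries of P7 growing oocytes, a control (Ring1-/-; Rnf2F/+; Ddx4-Cre) and a cKO whose genotype is given as Ring1-/-; Ring1F/-; Ddx4-Cre. In that label Ring1 appears a second time, possibly in place of Rnf2, and the group is therefore called the libraries labelled PRC1 cKO. All 6 groups carry Ddx4-Cre, which recombines in germ cells, and both PRC1 groups lack Ring1 as labelled. Eed belongs to the core of Polycomb repressive complex 2 (PRC2). Ring1 and Rnf2 are the paired E3 ligases of Polycomb repressive complex 1 (PRC1), either of which can mark histone H2A with ubiquitin. The series compares control with PRC2 cKO oocytes and control with PRC1 cKO oocytes.

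Immediate-early genes are transcribed within minutes of a stimulus, without new protein synthesis, when kinase cascades act on transcription factors already bound at their promoters. FOS and JUN proteins pair to form the AP-1 transcription factor, ATF3 belongs to the same basic leucine zipper class, and EGR1, KLF4 and KLF6 are zinc finger factors. The same genes respond to growth factors, to stress and to the dissociation of tissues, and their transcripts are short-lived.

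The members are compact genes. In GENCODE vM21 (GRCm38) the median span of the 9 genes is 5162 bp, against 17403 bp for 21951 protein-coding genes. The longest transcript has 4 exons or fewer in 88.9% of members and in 38.9% of all protein-coding genes, and Jun, Junb and Ier2 have a single exon. Atf3 stands apart with a span of 47744 bp. Fos (ENSMUSG00000021250) lies at chr12:85473890-85477273 on the plus strand and Atf3 (ENSMUSG00000026628) at chr1:191170296-191218039 on the minus strand. Jun (ENSMUSG00000052684) lies at chr4:95049034-95052222 on the minus strand and Klf6 (ENSMUSG00000000078) at chr13:5861482-5870394 on the plus strand.

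Promoter windows of 250 bases before the RefSeq start (GRCm38.p6) were at hand for 7 of the 9 members, Egr1 and Ier2 having no entry in the table used. The 4 windows printed here belong to members whose levels moved most or that share a motif. They run 5′ to 3′ on the gene's strand, and capitals mark the half-site TGACG of the cyclic AMP response element (CRE) on either strand (CGTCA on the other), the 8-base site TGACNTCA on either strand, and TATAAA on the gene's strand. The Fos window is chr12:85473640-85473889, the Atf3 window chr1:191183334-191183583, the Jun window chr4:95052223-95052472 and the Klf6 window chr13:5861239-5861488.
Fos: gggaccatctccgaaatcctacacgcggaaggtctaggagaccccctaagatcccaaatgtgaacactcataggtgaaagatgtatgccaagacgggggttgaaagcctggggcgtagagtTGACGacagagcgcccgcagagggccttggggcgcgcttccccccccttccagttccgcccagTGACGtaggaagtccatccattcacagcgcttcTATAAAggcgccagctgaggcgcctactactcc
Atf3: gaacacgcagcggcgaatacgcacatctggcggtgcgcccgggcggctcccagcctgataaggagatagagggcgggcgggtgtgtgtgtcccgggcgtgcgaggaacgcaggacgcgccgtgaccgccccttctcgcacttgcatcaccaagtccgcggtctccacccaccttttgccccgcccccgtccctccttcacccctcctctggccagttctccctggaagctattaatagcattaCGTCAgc
Jun: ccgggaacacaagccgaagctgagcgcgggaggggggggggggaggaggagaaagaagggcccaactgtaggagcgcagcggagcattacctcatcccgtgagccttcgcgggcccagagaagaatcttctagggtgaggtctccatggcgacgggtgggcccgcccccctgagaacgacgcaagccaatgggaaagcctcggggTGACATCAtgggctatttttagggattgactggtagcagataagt
Klf6: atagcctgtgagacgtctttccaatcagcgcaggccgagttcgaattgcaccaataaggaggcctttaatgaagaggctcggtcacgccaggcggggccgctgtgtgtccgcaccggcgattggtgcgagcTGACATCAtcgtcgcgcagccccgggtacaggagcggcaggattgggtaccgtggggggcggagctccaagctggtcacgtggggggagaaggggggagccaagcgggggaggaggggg
TGACG was found in 5 of the 7 member windows, Fos, Fosb, Junb, Atf3 and Klf4, and in 17.8% of 32851 RefSeq windows of the same length. Fos carries it at positions -129 to -125 and -66 to -62 before the start, and a TATAAA at -33 to -28, which 7.59% of all windows hold. In Atf3 the half-site lies at -7 to -3 on the opposite strand. The Atf3 window lies inside the GENCODE span of the gene, so it precedes an internal start. The bases before the 5′ end of that span were not examined. The 8-base site, searched after the sequences had been read, occurs as TGACATCA in Jun at -45 to -38 and in Klf6 at -119 to -112, and in 7.49% of all windows. Such matches can overlap between the first 2 motifs. The AP-1 site TGANTCA (on either strand) and the CArG box bound by serum response factor were in none of the 7 windows and in 6.75% and 1.47% of all windows. The GC box GGGCGG (on either strand) was in 6 of 7, all but Junb, and in 32.7% of all. GC content was 58.4% to 74.0% in the member windows, against a median of 52.4%. These matches are descriptions of letters and no measure of binding.

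The values are TPM, transcript abundances that are scaled by transcript length and sum to the same total in each library. They keep no record of depth, so single values carry no counting interval. Eed was at 88.9 and 90.5 TPM in PRC2 control non-growing oocytes and at 12.1 and 10.3 in the cKO, and it was also lower in growing cKO oocytes (limma adjusted p = 0.000252 and 0.0014). Rnf2 was not lower in the libraries labelled PRC1 cKO, at 87.8 and 61.4 TPM against 59.2 and 53.8 (limma adjusted p = 0.197), while Ring1 was at 0.02 TPM or less in all 4 PRC1 libraries. All 12 oocyte markers examined were at 1 TPM or more in every library. Models of the provisional annotation class TEC took 2.26% to 2.58% of TPM in non-growing, 20.9% to 25.9% in growing libraries of the PRC2 table and the PRC1 control, and 11.05% and 14.9% in the libraries labelled PRC1 cKO. Nothing in the labels ties the 2 libraries of a group to separate animals, and p-values may reflect technical spread alone.

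Ier2, Fos and Klf6 were the most abundant members in non-growing oocytes. In the PRC2 control, mean levels ran from Ier2 at 53.3 TPM through Fos at 23.9, Klf6 at 18.7 and Egr1 at 5.43 to Atf3 at 1.32, Jun at 1.01, Klf4 at 0.81, Fosb at 0.485 and Junb at 0.45. Neighbours in this order did not overlap, except that Atf3 overlapped Jun and Fosb overlapped Junb. In growing control oocytes of the same table Ier2 at 7.53 and Klf6 at 7.18 TPM led and overlapped, and Fos had moved behind Egr1, with levels of 2.04 and 2.19 TPM that also overlapped. In the libraries labelled PRC1 cKO the leading members were Fos at 20.7, Klf6 at 20.3 and Ier2 at 17.6 TPM, which were not separated. Each of the 9 genes was above 0 TPM in all 12 libraries.

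**Figure D1:**
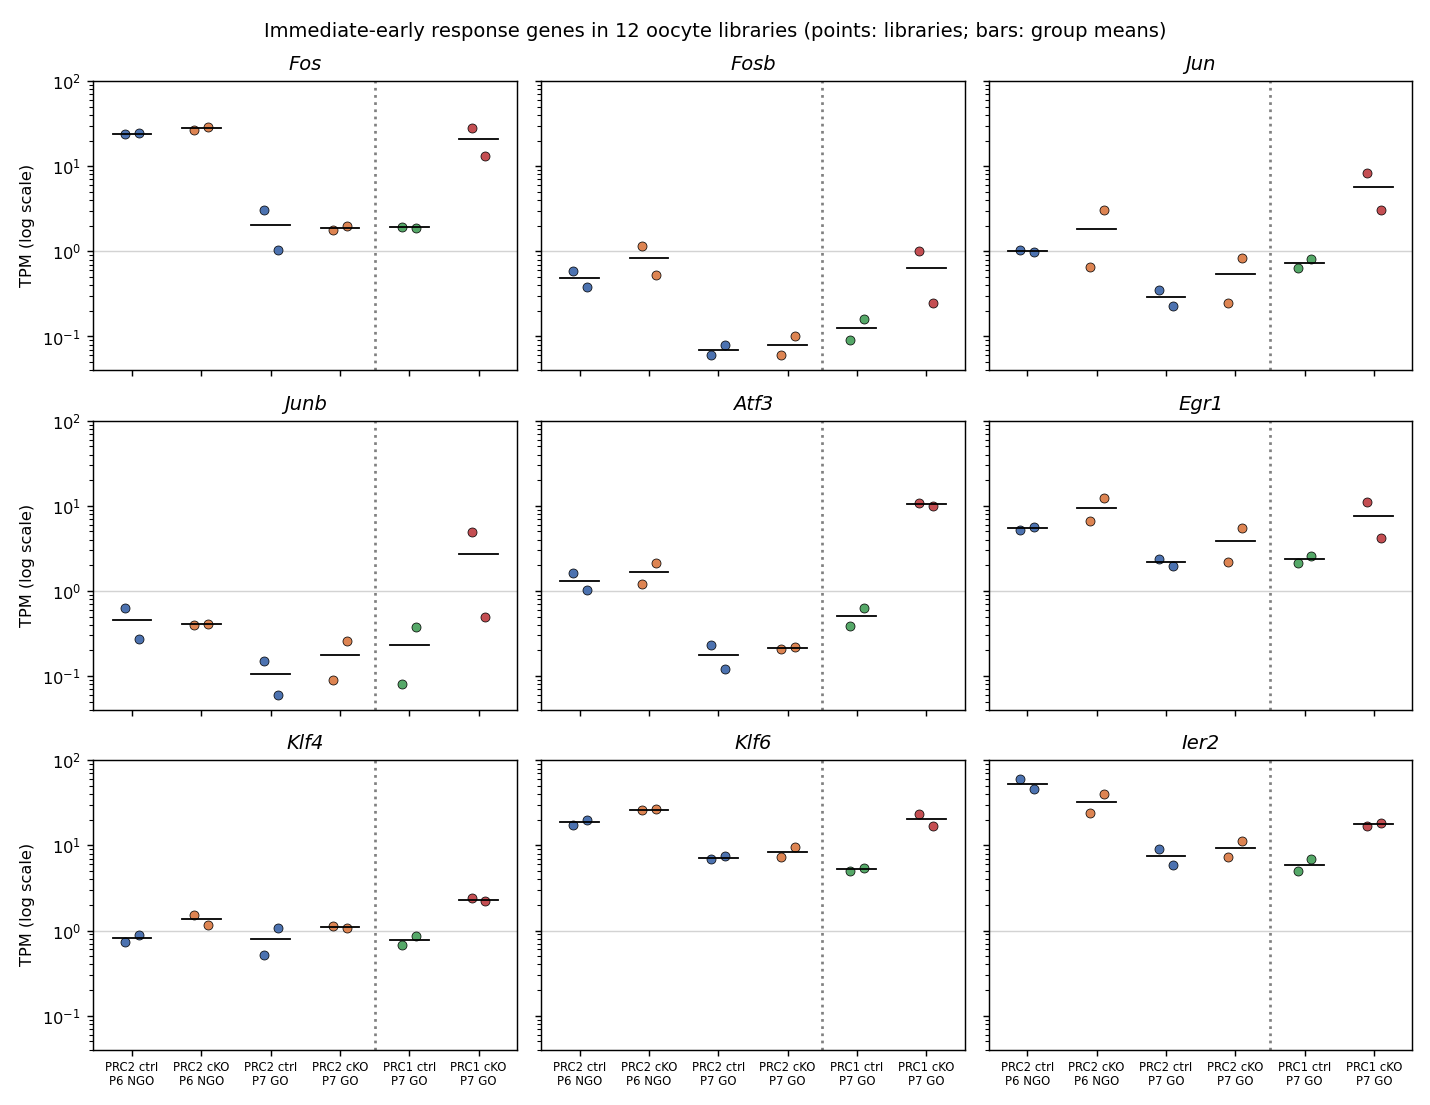
TPM on a log axis of each of the 9 members in the 12 libraries, with the 2 libraries of a group as points, their mean as a bar, and a dotted line between the 2 tables, which were normalized separately. Fos falls from 23.7 and 24.2 TPM in non-growing to 3.04 and 1.04 in growing PRC2 control oocytes, and in the libraries labelled PRC1 cKO it stands at 28.1 and 13.3 TPM.

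The members were then compared between stages in the PRC2 control. Fos, a FOS subunit of AP-1, was at 23.7 and 24.2 TPM in non-growing oocytes and at 3.04 and 1.04 TPM in growing oocytes. The groups were far apart, with an 11.7-fold higher mean in non-growing oocytes and a log2 fold change of TPM + 1 of -3.12 ± 0.30 (SE, limma adjusted p = 0.000116). All 4 libraries of each stage, cKO included, kept this order. Fosb, a second FOS subunit, was at 0.59 and 0.38 TPM in non-growing and 0.06 and 0.08 TPM in growing oocytes. Jun, the classical partner of FOS, was at 1.05 and 0.97 TPM and then 0.35 and 0.23 TPM, a change that missed the threshold (-0.64, limma adjusted p = 0.193, 0.0105 to 0.419 over the alternatives). It passed with only these 2 groups fitted (limma adjusted p = 0.0105) and without either non-growing cKO library (0.0415 without replicate 1 and 0.0395 without replicate 2). Junb was at 0.63 and 0.27 and then 0.15 and 0.06 TPM. Fosb and Junb did not reach 1 TPM in 2 libraries of either table, so 7 of the 9 members were tested in each.

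Atf3, a stress-induced factor that acts largely as a repressor, was at 1.61 and 1.02 TPM in non-growing control oocytes and at 0.23 and 0.12 TPM in growing ones (log2 fold change -0.97 ± 0.22 SE, limma adjusted p = 0.00693). Its groups did not overlap, and the log2(TPM + 1) scale understates a change at such low levels, the means differing 7.51-fold. Atf3 reached 1 TPM in all 4 non-growing and in none of the growing libraries of the PRC2 table, and Jun in 2 non-growing ones alone, so that being tested already required them to be high in non-growing oocytes. Egr1, a zinc finger factor induced by growth factors, was at 5.22 and 5.64 TPM and then 2.40 and 1.97 TPM. Those groups did not overlap either, but the change of -1.02 ± 0.39 (SE) stood at the threshold (limma adjusted p = 0.0502, 0.00355 to 0.306 over the alternatives). It passed without any 1 of the 4 cKO libraries, with adjusted p from 0.0194 to 0.0418, with a replicate block (0.0316), with a pseudocount of 0.1 (0.0434), with a filter of 5 TPM (0.0481) and with only these 2 groups fitted (0.00355). Klf4, a pluripotency factor, was at 0.74 and 0.88 TPM against 0.51 and 1.07 (-0.03, limma adjusted p = 0.891), so its groups overlapped. Klf6, a widely expressed Krüppel-like factor, fell from 17.4 and 20.1 TPM to 6.85 and 7.50 TPM (-1.27 ± 0.16 SE, limma adjusted p = 0.000431). Ier2, a small nuclear protein with roles in transcription, fell from 60.2 and 46.4 TPM to 9.11 and 5.94 TPM (-2.68 ± 0.32 SE, limma adjusted p = 0.000319).

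In total 4 members, Atf3 with its limit on filtering among them, passed as lower and none as higher from non-growing to growing control oocytes, where 70.6% of 14153 tested genes passed, 54% as lower and 16.6% as higher. The groups of 8 of the 9 members did not overlap, Klf4 being the exception, and those of 88.8% of tested genes did not either. The share of members called is thus near the background, and the direction is that of most genes. All 9 changes were negative, with a median of -0.97 (-1.02 over the 7 tested) on the log2(TPM + 1) scale. The median over all tested genes was -0.67. Relative to that median, 5 members lay below it and 4 above, with Fos at -2.45 and Ier2 at -2.01 farthest below and Klf4 at 0.64 farthest above. The median gene moved with scaling, to -0.22 with quantile normalization, -0.09 with trimmed-mean scaling and -0.31 with scaling to nuclear protein-coding genes. Trimmed-mean scaling gave 3967 genes higher and 4209 lower, against 2346 and 7640 as deposited, quantile normalization 3520 and 5116, and protein-coding scaling 3302 and 5480. Fos, Ier2, Atf3 and Klf6 stayed lower and called under all 3 scalings, and the sign of Klf4 turned under each. In bulk samples fewer cells of a type and less RNA per cell cannot be told apart.

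The same comparison within PRC2 cKO oocytes shares no library with the control one. Both draw their spread from the single fit of all PRC2 groups, so their p-values are not independent. Fos was at 26.9 and 28.6 TPM in non-growing and at 1.77 and 1.96 TPM in growing cKO oocytes (-3.33 ± 0.30 SE, limma adjusted p = 8.76e-05). Klf6 fell from 26.0 and 26.6 to 7.28 and 9.54 TPM (-1.55, limma adjusted p = 0.000176), and Ier2 from 24.3 and 40.6 to 7.34 and 11.2 TPM (-1.68, limma adjusted p = 0.00313). Atf3 fell from 1.2 and 2.15 to 0.21 and 0.22 TPM (-1.12, limma adjusted p = 0.00391). These 4 genes were separated by stage in this genotype too. Egr1 was at 6.60 and 12.3 and then 2.20 and 5.54 TPM (-1.14 ± 0.39 SE, limma adjusted p = 0.0359, 0.00833 to 0.189 over the alternatives). Its call depended on single libraries. It was lost without non-growing cKO replicate 2 (-0.73, limma adjusted p = 0.189), growing cKO replicate 1 (-0.62, 0.163) or any 1 of the 4 control libraries (0.0584 to 0.06). It was also lost with no low-value filter (0.0849), with trimmed-mean (0.137) or protein-coding scaling (0.135), and with only these 2 groups fitted (0.103). Jun, at 0.66 and 3.04 and then 0.25 and 0.83 TPM, overlapped and did not pass (limma adjusted p = 0.132), except without non-growing cKO replicate 1 (-1.42, 0.00623). Fosb was at 1.14 and 0.53 and then 0.06 and 0.10 TPM, and Junb at 0.40 and 0.41 and then 0.09 and 0.26 TPM. Klf4 was at 1.54 and 1.16 and then 1.13 and 1.07 TPM (limma adjusted p = 0.511).

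Thus 5 members, again with Atf3 tested only through its non-growing libraries, passed as lower and none as higher in the cKO, where 66.1% of tested genes passed, 46% as lower and 20.1% as higher. The groups of 8 of the 9 members did not overlap, with Jun the exception, beside 79.3% of tested genes. The median over the 9 members was -1.12 (-1.14 over the 7 tested). Of the 9 members 7 lay below the median over all tested genes, -0.45. That median was -0.22 with quantile normalization, 0.0055 with trimmed-mean scaling and -0.06 with protein-coding scaling, and the calls split into 3646 higher and 5371 lower, 4403 and 4184, and 4074 and 4570, against 2844 and 6516 as deposited. Fos, Ier2, Atf3 and Klf6 stayed lower and called under all 3, and Klf4 turned positive under the latter 2.

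**Figure D2:**
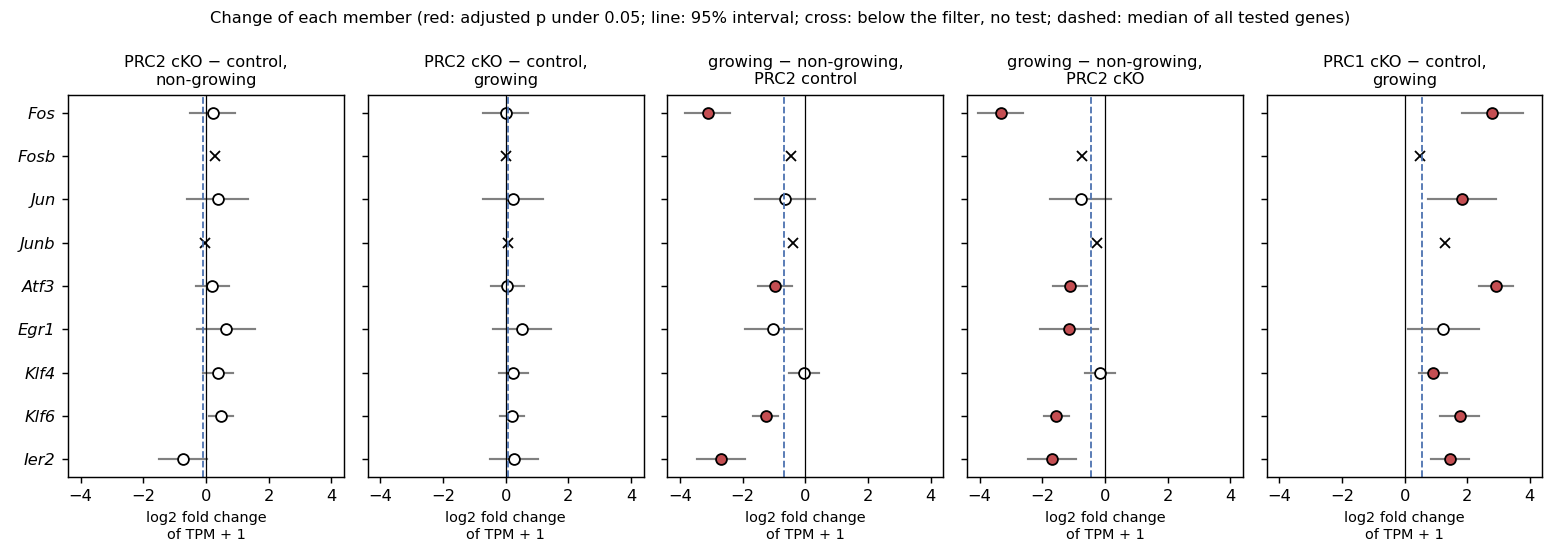
Log2 fold change of TPM + 1 of each member in 5 comparisons, with 95% intervals, red for adjusted p under 0.05, crosses for Fosb and Junb, which were below the filter, and a dashed line at the median of all tested genes. Fos is at -3.12 and -3.33 between stages and at 2.80 in the libraries labelled PRC1 cKO, while no member passes in either PRC2 cKO comparison.

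The loss of Eed moved no member past the threshold in non-growing oocytes (0 of 7 tested), where 0.311% of genes passed, 0.113% as higher and 0.198% as lower. At an unadjusted limma p under 0.05 there was 1 member, Klf6, and there were 2316 of 14153 genes. Klf6 was at 26.0 and 26.6 TPM in the cKO and at 17.4 and 20.1 in the control, without overlap (0.47 ± 0.16 SE, limma adjusted p = 0.258, 0.119 to 0.631 over the alternatives). Egr1 was at 6.60 and 12.3 TPM against 5.22 and 5.64 (0.65 ± 0.39 SE, limma adjusted p = 0.429), also without overlap. Fos was at 26.9 and 28.6 TPM against 23.7 and 24.2, a difference of 0.20 with a 95% interval of -0.51 to 0.92 (limma adjusted p = 0.751). Ier2 went the other way, at 24.3 and 40.6 TPM in the cKO against 60.2 and 46.4 in the control (-0.73 ± 0.32 SE, limma adjusted p = 0.317). Klf4 was at 1.54 and 1.16 TPM against 0.74 and 0.88 (0.37, limma adjusted p = 0.383). The groups of these 5 genes did not overlap, 4 higher and 1 lower in the cKO, where 58.4% of tested genes did not overlap, 20.3% higher and 38.1% lower. Those of Fosb, Jun, Junb and Atf3 overlapped, and Jun spread from 0.66 to 3.04 TPM between the 2 cKO libraries. The median over the 9 members was 0.29 (0.37 over the 7 tested), and over all tested genes -0.09.

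In growing PRC2 oocytes no member passed either (0 of 7 tested, and 0 at an unadjusted limma p under 0.05), with 0.17% of genes called (0.12% higher and 0.0495% lower) and 1407 at an unadjusted p under 0.05. Fos was at 1.77 and 1.96 TPM in the cKO and at 3.04 and 1.04 in the control, with a difference of -0.0037 and a 95% interval of -0.72 to 0.71. The control libraries lay on either side of both cKO libraries. Egr1 had the largest difference of the 9, at 2.20 and 5.54 TPM against 2.40 and 1.97 (0.53 ± 0.39 SE, limma adjusted p = 0.648), with replicate 1 of the cKO between the controls. The groups of all 9 members overlapped, while those of 36.5% of tested genes did not. The 95% interval was -0.73 to 1.2 for Jun, -0.40 to 1.45 for Egr1 and narrower for Klf6, at -0.19 to 0.58. The median over the 9 was 0.19 (0.23 over the 7 tested), and over all tested genes 0.08.

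The effects of the cKO at the 2 stages were compared directly as a difference of differences. No member passed (0 of 7, and 0 at an unadjusted limma p under 0.05), where 0.0989% of genes did (0.0919% with a positive and 0.00707% with a negative difference) and 2230 were at an unadjusted p under 0.05. Ier2 had the largest value, 1.00 ± 0.45 (SE, limma adjusted p = 0.332), from its lower level in non-growing and its overlapping level in growing cKO oocytes. The other 6 tested members lay between -0.28 and -0.12.

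The libraries labelled PRC1 cKO differed from their control in the opposite direction to growth. Fos was at 1.95 and 1.90 TPM in the control, against 28.1 and 13.3 TPM in those labelled PRC1 cKO. The lower of these was above both controls, and the log2 fold change was 2.80 ± 0.38 (SE, limma adjusted p = 0.00529), 2.29 without labelled cKO replicate 1 and 3.32 without replicate 2. Jun was at 0.63 and 0.82 TPM against 8.33 and 3.07 TPM (1.84 ± 0.42 SE, limma adjusted p = 0.0205, 0.00351 to 0.0885 over the alternatives). Its groups did not overlap, yet its call was lost without control replicate 1 (0.0821) or 2 (0.0548), with no low-value filter (0.0772) and with quantile normalization (0.0885). Without labelled cKO replicate 1 its change was 1.24, and without replicate 2 it was 2.44. Fosb, at 0.09 and 0.16 TPM against 1.01 and 0.25, and Junb, at 0.08 and 0.38 TPM against 4.99 and 0.50, were separated but too low to be tested. The value of Junb rested on labelled cKO replicate 1, its log2 difference of TPM + 1 being 1.3 with it and 0.30 without.

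Atf3 was at 0.39 and 0.63 TPM in the control, against 10.7 and 10.1 TPM in those labelled PRC1 cKO (2.92 ± 0.22 SE, limma adjusted p = 0.00219), and the 2 labelled cKO libraries lay close together. Its means differed 20.4-fold. Among the zinc finger factors, Klf6 was at 5.04 and 5.40 TPM against 23.7 and 16.9 TPM (1.76 ± 0.24 SE, limma adjusted p = 0.00537). Klf4 was at 0.67 and 0.87 TPM against 2.43 and 2.20 TPM (0.91 ± 0.18 SE, limma adjusted p = 0.0134, 0.00828 to 0.905 over the alternatives). Relative to the median gene Klf4 differed by 0.36, and with quantile normalization its change was 0.03 (0.905). Its call was also lost with no low-value filter (0.0616) and without control replicate 1 (0.117) or 2 (0.0665). Egr1 was at 2.15 and 2.57 TPM against 11.2 and 4.13 TPM, separated but not past the threshold (1.24 ± 0.45 SE, limma adjusted p = 0.0724, 0.0141 to 0.36 over the alternatives). It passed without labelled cKO replicate 2 (1.86, 0.0189) and was 0.61 without replicate 1. Ier2 was at 4.94 and 6.97 TPM against 16.8 and 18.4 TPM (1.44 ± 0.24 SE, limma adjusted p = 0.0084, 0.00227 to 0.0618 over the alternatives), and its call was lost without control replicate 1 (1.22, 0.0618).

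In total 6 members passed as higher and none as lower, where 47.8% of 14941 tested genes passed, 41.3% as higher and 6.45% as lower. Jun, Atf3 and Klf4 passed the low-value filter only through the libraries labelled PRC1 cKO, being under 1 TPM in both controls, so that being tested already required them to be high there. The groups of all 9 members did not overlap, with the libraries labelled PRC1 cKO higher, and those of 77.5% of tested genes did not either, 62.3% higher and 15.2% lower. All 9 changes were positive, with a median of 1.44 (1.76 over the 7 tested). Of all tested genes 75.8% were positive, with a median of 0.55. Relative to that median 8 members lay above and Fosb below. The median gene was at -0.04 with quantile normalization, 0.16 with trimmed-mean scaling and 0.37 with protein-coding scaling, and calls then split into 2722 higher and 2636 lower, 4061 and 2171, and 5052 and 1512, against 6176 and 964 as deposited. All 7 tested members stayed positive under these scalings, with 4 called (Fos, Atf3, Klf6 and Ier2) under quantile normalization and 6 under the others. Without control replicate 1 there were 3 members called (Fos, Atf3 and Klf6) and 2953 genes, and without control replicate 2 there were 4 (Ier2 added) and 4223 genes. Without labelled cKO replicate 1 there were 6 and 4400 genes, and without replicate 2 there were 7 and 6390 genes.

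Markers of other ovarian cell types moved in the same comparison. The summed TPM of 15 granulosa markers was 17.6 and 20.8 in the PRC1 control and 49.0 and 37.4 in the libraries labelled PRC1 cKO. Of these markers 7 were tested and 4 were higher (57.1%, beside 47.8% of all genes called). In the 2 controls 3 and 4 of the granulosa markers were at 1 TPM or more, against 8 in each labelled cKO library. Some were thus tested only through the latter. Inha, an inhibin subunit made by granulosa cells, was at 0.59 and 2.68 against 17.2 and 10.9 TPM. Foxl2, a defining granulosa factor, stayed at 0.19 TPM or less. Of 9 endothelial markers 6 were tested and 5 were higher (83.3%). Only 2 endothelial markers were at 1 TPM or more in each control, against 6 in each labelled cKO library. Most were thus tested only through the latter, and being tested already required them to be high there. Their sums were 7.83 and 6.76 against 20.03 and 19.7 TPM, with Cdh5 at 0.10 and Kdr at 0.08 TPM at most. Of 10 immune markers 2 were tested and C1qb was higher (50%). The immune sums, 14.2 and 15.2 against 43.5 and 36.7 TPM, were mostly C1qb, at 11.6 and 12.8 against 38.8 and 33.5 TPM. Itgam was at 0 in all 4 libraries, Ptprc at 0.16 and Csf1r at 0.24 TPM at most. The 12 stromal and theca markers summed to 3.26 and 2.03 against 7.11 and 10.01 TPM, with Nr2f2 tested and higher. Nr2f2 was under 1 TPM in both controls, so it was tested only through the libraries labelled PRC1 cKO. The 6 blood markers summed to 0.25 and 0.85 against 2.42 and 2.38 TPM. The 12 oocyte markers summed to 19192 and 20522 against 14291 and 13948 TPM, and of the 12 tested 3 were higher and 4 lower (58.3%). The part of these markers in the members' change was not tested. Between stages of the PRC2 table the members' sum was 88.7 to 115.4 TPM in non-growing and 18.0 to 30.7 TPM in growing libraries. In the same order the granulosa sum was 5.23 to 8.26 and 18.4 to 21.4 TPM, and the immune sum 0.71 to 2.02 and 4.83 to 13.6 TPM, most of the latter being C1qb (1.06 and 1.03 against 10.7 and 11.05 TPM in the control). The endothelial sum was 6.02 to 13.2 and 5.42 to 13.1 TPM, and the stromal and theca sum 3.65 to 6.75 and 3.70 to 4.38 TPM. Their part in the stage differences was not tested.

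**Figure D3:**
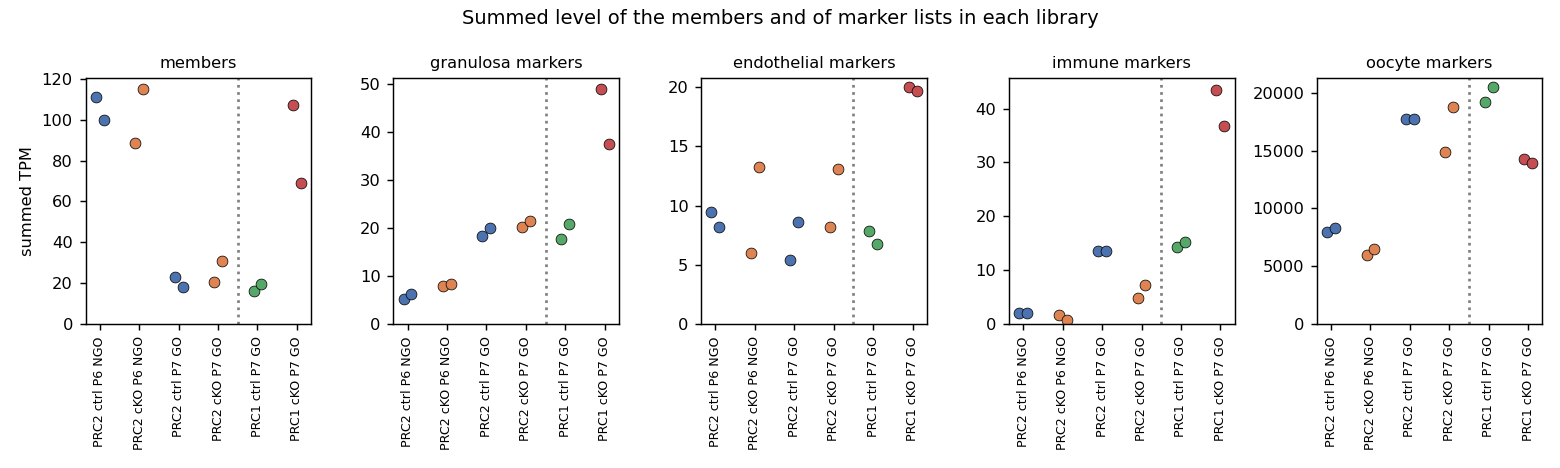
Summed TPM of the 9 members and of 4 marker lists in each library, on linear axes from 0, with a dotted line between the tables. In the libraries labelled PRC1 cKO the members' sum is 107.3 and 68.9 TPM, against 15.9 and 19.7 in their control. The granulosa, endothelial and immune sums are higher there too, the immune sum being mostly C1qb.

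The members also differed between libraries of 1 group. In the libraries labelled PRC1 cKO, 8 of 9 members were higher in replicate 1, all but Ier2, with a median difference of -0.69 (replicate 2 minus replicate 1, log2 of TPM + 1) against -0.16 for all tested genes, of which 32.7% were higher in replicate 2. Junb, Egr1, Jun and Fos had the largest such differences, while Atf3 and Klf4 were nearly equal. In growing PRC2 cKO oocytes 8 of 9 were higher in replicate 2, as were 64.5% of all tested genes, and in the PRC1 control 8 of 9 against 65.9%. In non-growing PRC2 cKO oocytes it was 7 of 9 against 57.2%, led by Jun, Egr1 and Ier2. In the PRC2 controls members went both ways, with 4 of 9 higher in replicate 2 in non-growing and 3 of 9 in growing oocytes. Fos was the most uneven member in the growing control.

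**Figure D4:**
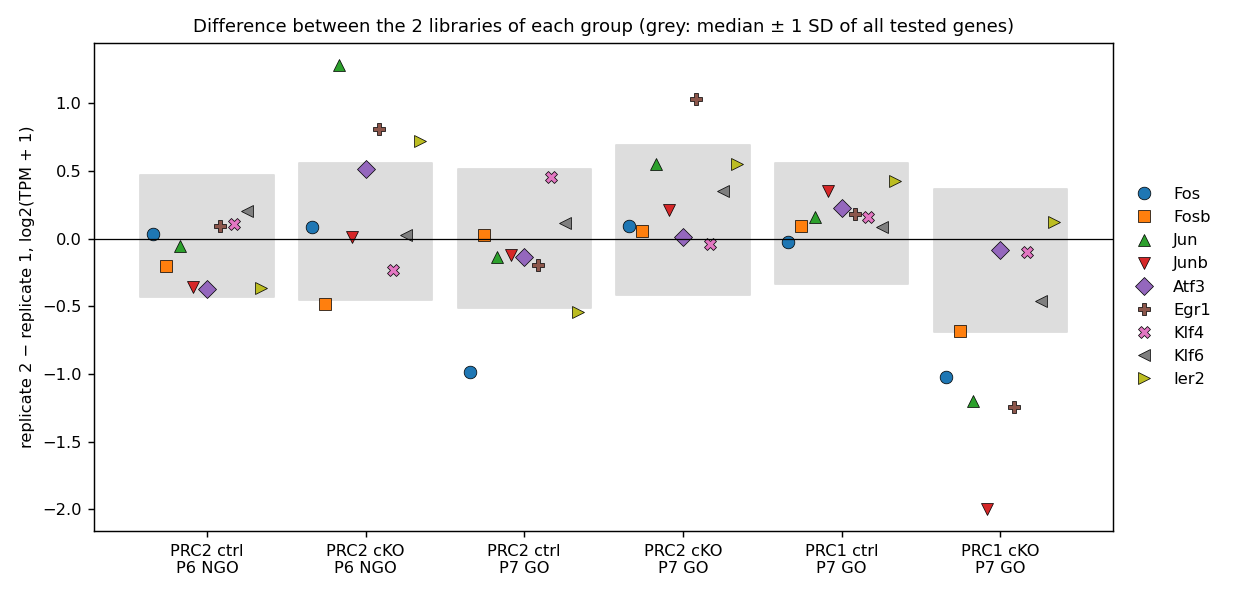
Replicate 2 minus replicate 1 of each member in the 6 groups, on the log2(TPM + 1) scale, with a grey band for the median ± 1 SD of all tested genes. In the libraries labelled PRC1 cKO all members but Ier2 lie below 0, around a median of -0.69.

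Other genes of the response were taken from lists written with the members. Among 12 other AP-1 subunits 5 were tested in the PRC1 table and only Batf3 was called (20%, beside 47.8% of all genes). It was higher, at 5.40 and 4.23 TPM against 0.47 and 0.94 (1.78, limma adjusted p = 0.00529). Batf3 was also higher, not lower, in growing than in non-growing control oocytes (0.77, limma adjusted p = 0.0318). It was the only riser of 6 tested there, with 1 faller (33.3% called, beside 70.6% of all genes). Of 6 other EGR and NR4A genes 2 were tested in each table. Egr2, a zinc finger factor related to Egr1, was at 4.22 and 4.63 TPM in non-growing and 0.66 and 0.45 in growing controls (limma adjusted p = 0.00803). It stood at 3.67 and 1.70 TPM where PRC1 cKO was the label, against 0.45 and 0.90 TPM (limma adjusted p = 0.0422). Batf3 and Egr2 were under 1 TPM in both PRC1 controls, so they were tested there only through the libraries labelled PRC1 cKO.

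Of 15 other Krüppel-like factors, 13 were tested in the PRC1 table, with 6 higher and 2 lower (61.5%, beside 47.8% of all genes). The median of the list was 0.48, against 0.55 for all. Klf5 was at 0.14 and 0.07 TPM and then 4.15 and 4.38 TPM (2.25, limma adjusted p = 0.00224), and Klf10, induced by TGF-beta, at 9.51 and 12.2 and then 59.0 and 40.5 TPM. Klf5, under 1 TPM in both controls, was tested only through the libraries labelled PRC1 cKO. With growth in the PRC2 control 7 of 11 were lower and 3 higher (90.9%, beside 70.6% of all genes). Klf17, an oocyte factor, rose from 6.09 and 7.34 to 62.9 and 80.3 TPM (3.23, limma adjusted p = 6.98e-05), and Klf3 fell from 6 and 3.84 to 1.15 and 0.55 TPM. The Krüppel-like family thus held genes of both directions at this step.

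Among 29 other immediate-early genes 23 were tested in the PRC1 table, 10 higher and 4 lower (60.9%, beside 47.8% of all genes). The median of the list was 0.70. Plk2, a kinase of the stress response, was at 0.24 and 0.77 TPM against 19.5 and 17.3 TPM (3.71, limma adjusted p = 0.00212). Gadd45g, a growth arrest gene, was at 0.26 and 0.24 against 5.76 and 5.13 TPM, and Btg2, an antiproliferative gene, at 8.43 and 11.5 against 40.7 and 30.7 TPM. Plk2 and Gadd45g were under 1 TPM in both controls, so being tested already required them to be high in the libraries labelled PRC1 cKO. The summed level of the list overlapped between these groups, 425 and 495 against 549 and 415 TPM. With growth in the control 10 were lower and 3 higher of 21 tested (61.9%, beside 70.6% of all genes). The median of the list was then -0.43, against -0.67 for all. Btg1 fell from 38.5 and 31.2 to 5.74 and 6.28 TPM. Bhlhe40 and Rgs2 rose, the latter, a regulator of G protein signalling, from 2.97 and 6.77 to 84.4 and 97.8 TPM (4.05, limma adjusted p = 5.24e-05). Bhlhe40 was under 1 TPM in every non-growing library, so it was tested only through growing ones.

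Of 32 upstream kinases and factors 30 were tested in the PRC1 table, with 4 higher and 4 lower (26.7%, beside 47.8% of all genes). Egfr, the epidermal growth factor receptor, was at 4.58 and 4.89 against 16.5 and 13.1 TPM, and Creb1, a factor that binds the cyclic AMP response element, at 3.86 and 3.41 against 10.4 and 9.04 TPM. With growth in the control 12 were lower and 4 higher of 28 tested (57.1%, beside 70.6% of all genes). Braf fell from 39.7 and 35.3 to 5.08 and 4.46 TPM, and Mos, the oocyte kinase upstream of ERK, rose from 49.2 and 50.9 to 212 and 203 TPM.

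Of 18 feedback inhibitors 14 were tested in the PRC1 table, 6 higher and none lower (42.9%, beside 47.8% of all genes). Tsc22d3, a glucocorticoid-induced inhibitor of AP-1, was at 1.81 and 3.68 TPM in the control, against 182 and 149 TPM in those labelled PRC1 cKO (5.51, limma adjusted p = 0.00208). It fell with growth in the PRC2 control, from 12.5 and 13.0 to 0.75 and 0.26 TPM (limma adjusted p = 8.92e-05), so it changed in the same directions as Fos in both comparisons. Dusp5, a phosphatase of ERK, was higher too, at 1.82 and 1.67 against 6.20 and 4.90 TPM. Spry4 and Dusp2, inhibitors of the same cascade, rose with growth, Spry4 from 0.06 and 0.09 to 14.9 and 16.3 TPM. Spry4 was under 1 TPM in every non-growing library, so it was tested only through growing ones. With growth in the control 4 inhibitors were higher and 3 lower of 12 tested (58.3%, beside 70.6% of all genes).

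Heat shock genes respond to stress alongside the members. Of these, 17 were tested in the PRC1 table, with 10 higher and 2 lower (70.6%, beside 47.8% of all genes). The median of the list was 0.76, against 0.55 for all. The summed level of the heat shock genes was 5577 and 5692 TPM in the control and 8915 and 7391 TPM in those labelled PRC1 cKO. The part of this difference in the members' change was not tested. Hspa5, a chaperone of the endoplasmic reticulum, was at 476 and 512 against 1181 and 965 TPM, and Dnajb4 was lower, at 26.7 and 21.2 against 8.09 and 9.23 TPM. With growth in the control 5 were higher and 5 lower of 16 tested (62.5%, beside 70.6% of all genes). In the PRC2 cKO comparisons no gene of these 7 lists passed in the limma fit (0 of 96 tested, with 13 and 13 at an unadjusted p under 0.05 in non-growing and growing oocytes). Of all 14153 tested genes 0.311% and 0.17% passed there, with 2316 and 1407 at an unadjusted limma p under 0.05. Within these lists the smallest adjusted p was that of Fosl1 in non-growing oocytes, at 1.41 and 1.74 TPM in the cKO against 0.41 and 0.35 (0.90, limma adjusted p = 0.109). Fosl1 was under 1 TPM in the other groups of the PRC2 table, so it was tested only through the non-growing cKO libraries.

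**Figure D5:**
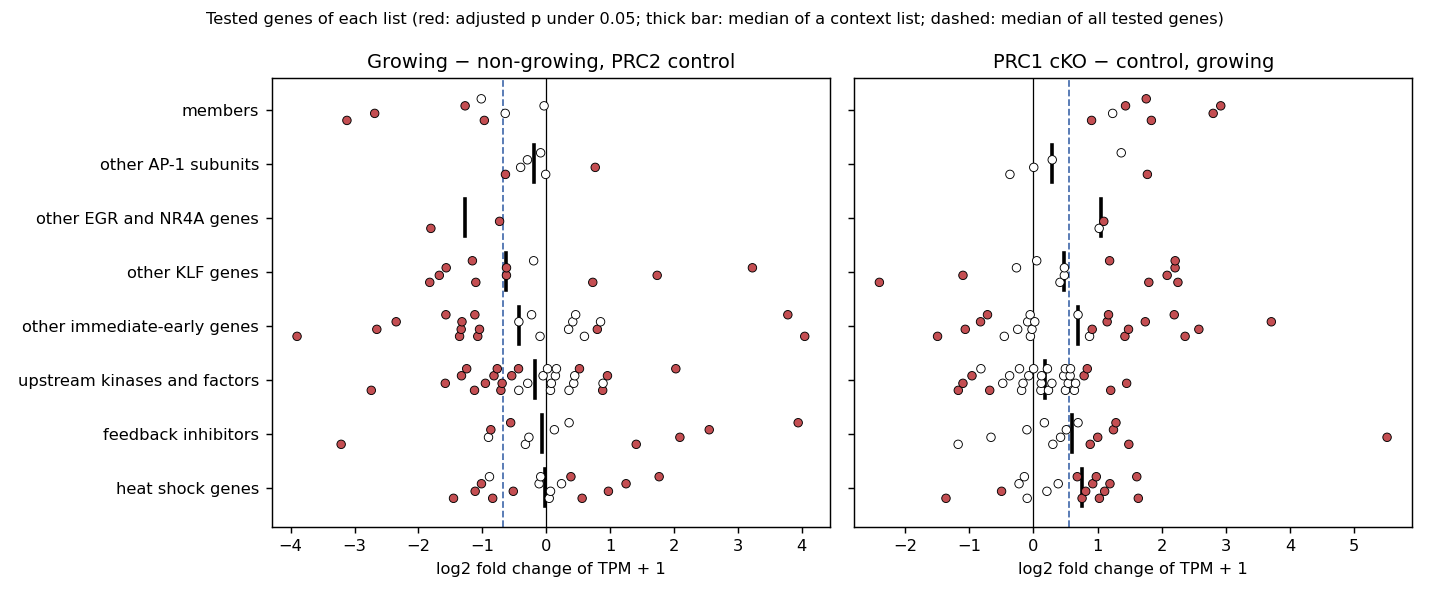
Log2 fold change of TPM + 1 of the tested genes of each list, red for adjusted p under 0.05, a thick bar at the median of each context list and a dashed line at the median of all tested genes. Between stages the context lists other than the EGR and NR4A genes spread to both sides of 0, and in the PRC1 comparison Tsc22d3 at 5.51 is farthest to the right.

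Across the 8 libraries of the PRC2 table, the genes most like Fos in log2(TPM + 1) were Chek2, Ldah and Smc1b (Pearson r 0.999 for each), as a description over libraries that fall into 2 stages. Ier2 was most like Glud1, Rabl6 and Iscu (0.998, 0.998 and 0.995), Klf6 most like Ddx25, Spata22 and Cep192 (0.996, 0.996 and 0.994), Atf3 most like Gid4, Snx18 and Sephs1 (0.989, 0.988 and 0.987) and Egr1 most like Deaf1, Mlst8 and Krit1 (0.985, 0.981 and 0.978). With 8526 candidates and a stage step in most genes, high values are common.

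Some counts are less certain than others. Jun shares 232 of its 3189 exonic bases with Junos on the opposite strand, which was at 3.39 TPM at most, and Junb shares 173 of 2301 with Prdx2, which was at 230 to 754 TPM. Whether strand was used in counting is not given, so reads over the bases shared by these pairs may not have been told apart. Klf4 has a processed pseudogene, Gm48640, with 91.3% identity over 242 bases.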

How the data were processed

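Groups and replicate numbers of the oocyte libraries were read from the titles, 2 libraries per group. Per the labels' protocols, a single-cell and low-input kit was used and reads were pairs of 150 bases. Trim Galore 0.6.10, HISAT2, SAMtools, Subread (version 2.0.3) and RSEM (version 1.3.3) are named in the submitters' processing notes. The deposited TPM values, computed by the authors, come in tables of 55385 and 55401 gene models. The program behind them, the use of strand and the handling of reads with several matches are, in the sources used here, not given. Counts could not be tested, since TPM holds no depth. Since TPM has a fixed sum, a gain in abundant models lowers the rest.

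Testing took genes at 1 TPM or more in 2 or more libraries of a table, which left 14153 and 14941. Values were log2(TPM + 1), fitted with limma 3.58.1 in R 4.3.3 (eBayes with a trend), a single fit holding every group of a table. Tests were two-sided and p-values Benjamini-Hochberg adjusted over all genes tested, with a threshold of 0.05. The script was tested on simulated data. There were 6 comparisons: cKO against control at each PRC2 stage, their difference, growing against non-growing oocytes in each PRC2 genotype, and the libraries labelled PRC1 cKO against control. Values were compared within a table only, as the tables were treated as normalized separately. Promoter windows came from RefSeq, and similar transcripts were found with blastn 2.17.0.

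The members and lists were chosen with earlier results of these data known. Named genes were all members, the targeted genes, and of each context list up to 3 called genes of smallest p whose higher group averaged 2 TPM or more (1 where none was called). A gene that this rule names is not reported here. The likest genes were the 3 of highest correlation among those averaging 5 TPM or more in a group, predicted models left out. Marker genes and the 8-base promoter site were picked after values or sequences were seen. Alternatives were other pseudocounts and filters, 3 scalings, eBayes with no trend, a replicate block, leaving out each library, and fitting 2 groups alone. A crossed block was added after the data were seen.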

Additional observations from a re-analysis of the deposited data

How the results depend on the processing

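Fos, Ier2, Atf3 and Klf6 stayed lower in growing oocytes and called in both PRC2 genotypes under every alternative run, and Fos, Atf3 and Klf6 stayed higher and called in the libraries labelled PRC1 cKO. Atf3 passed the filter only through its non-growing libraries in the PRC2 table and through the labelled cKO libraries in the PRC1 table. No member was called in either PRC2 cKO comparison or in their difference under any alternative. Calls of Jun, Egr1, Klf4 and Ier2 that changed are given with the results, and the cause of each change was not tested. With 2 libraries per group and no depth in TPM, small changes of low members could not be resolved, and Fosb and Junb were not tested. A filter of 5 TPM removed Jun, Atf3 and Klf4 from the PRC2 tests and Jun, Egr1 and Klf4 from the PRC1 tests, so it gave no value for them.

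The number of genes called in non-growing PRC2 cKO oocytes, 44, was 87 with a pseudocount of 5, 91 with no filter, 26 with trimmed-mean scaling, 10 with only those groups fitted and 14 to 45 with a library left out. In growing cKO oocytes, 24 became 50 with no filter, 12 with eBayes without trend, 1 with only those groups fitted and 10 to 35 with a library left out. For the difference of effects, 14 became 7 with a pseudocount of 5, 9 with a filter of 5 TPM and 3 to 842 with a library left out, the last without growing cKO replicate 1. In the PRC1 comparison with a library left out, the count of genes called went from 7140 to between 2953 and 6390 and that of members from 6 to between 3 and 7.

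Deviations of libraries with the same replicate number correlated at -0.03 to 0.26 among PRC2 groups and at -0.27 between the PRC1 groups. With 2 numbers only, these values cannot settle whether the numbers pair the samples. With the number as a replicate block, genes called fell from 44 to 20 in non-growing cKO oocytes and from 14 to 5 for the difference of effects, other counts staying within 1.5 times, and Egr1 between control stages passed. With the crossed pairing of the PRC1 numbers, chosen after seeing the data, 9501 genes and 7 members were called, against 5094 and 6 with the block as numbered.

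Reversals were confined to changes that passed no test. Fos in growing PRC2 cKO oocytes was 0.053 with a pseudocount of 0.1, 0.028 with protein-coding scaling and -0.50 to 0.49 with a library left out. Atf3 there was -0.076 with quantile normalization. Klf4 between control stages was 0.21 with quantile normalization, 0.29 with trimmed-mean and 0.21 with protein-coding scaling, and between cKO stages 0.16 and 0.13 with the latter 2. Jun in the difference of effects was 0.088 with a pseudocount of 0.1. With a library left out, in non-growing cKO oocytes Jun ranged from -0.28 to 1.01 and Atf3 from -0.062 to 0.46. In growing cKO oocytes Jun ranged from -0.044 to 0.51, Ier2 from -0.0063 to 0.54 and Atf3 from -0.018 to 0.12. Klf4 between control stages ranged from -0.26 to 0.19. In the difference of effects Fos ranged from -0.70 to 0.28, Jun from -0.78 to 0.51, Egr1 from -0.64 to 0.39, Atf3 from -0.41 to 0.11 and Klf4 from -0.35 to 0.10.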
